A study of Homo sapiens with 4 samples.

Results

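Oxidative phosphorylation is the work of 5 protein complexes of the inner mitochondrial membrane, and its genes are split between the nucleus and the mitochondrial DNA. The deposited table holds 40205 rows, of which 108 belong to this system by symbol. The nuclear set has 96 mRNA rows whose symbols start with NDUFA, NDUFB, NDUFC, NDUFS, NDUFV, UQCR, COX4I, COX5, COX6, COX7, COX8 or ATP5, or are SDHA to SDHD. The mitochondrial set has 12 rows, ND1 to ND6 with ND4L, CYTB, COX1, COX3, ATP6 and ATP8. The rule itself uses symbols and row types and no measured value. The nuclear prefixes also bring in 7 complex I assembly factors (NDUFAF1 to NDUFAF7), 4 rows for gene copies or readthrough transcripts, and a few other factors. Counts and medians of nuclear members include these rows unless they are said to be of subunits alone.

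The 4 libraries were poly(A) RNA of U87MG and U251, human glioblastoma cell lines grown in serum. The KD libraries came from cells with a lentiviral hairpin against SRSF1, a splicing factor of the SR family, and the libraries labelled WT came from cells with the lentiviral control hairpin sh-NC. All 4 populations were thus infected, at a multiplicity of infection of 20, and selected with puromycin for 1 week, so that no uninfected cells were compared. With 1 library per line and arm, a ratio within a line has no replicate check, and the arms are replicated only across the lines.

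Complexes I to IV pass electrons from NADH and succinate to oxygen and, apart from complex II, pump protons. Complex V, the ATP synthase, uses the proton gradient to make ATP. The mitochondrial DNA encodes a few hydrophobic core subunits of complexes I, III, IV and V, and complex II is wholly nuclear. Its genes are read from both strands into long precursors, which are cut at tRNAs, and most of the resulting mRNAs are polyadenylated. Nuclear subunits are transcribed one by one, and factors such as NRF1 and GABP are known to bind many of their promoters.

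The NRF1 core, GCGCATGC or its reverse complement GCATGCGC, was searched on both strands of RefSeq promoter windows (GRCh38.p14), from 250 bases before to 50 bases after each start. It was found in 16 of the 77 nuclear members with a window (20.8%), in 646 of 9711 tested mRNA genes (6.65%) and in 1006 of 27305 genes with a window (3.68%). The GABP core, CCGGAAG or CTTCCGG, was found in 21 of the 77 members (27.3%), against 23.5% of tested mRNA genes and 12.2% of all genes with a window. A match is a description of letters and not a measured binding site. The 4 stretches shown here belong to nuclear members whose values are described below. Each has 30 bases, with the NRF1 core in capitals.
NDUFA8, chr9:122159765-122159794, minus strand: tgttgccggatGCGCATGCgcaggcgccgt
SDHB, chr1:17054214-17054243, minus strand: aagccaaatggGCATGCGCcgctactgcgc
COX5B, chr2:97645915-97645944, plus strand: ggcagagctggGCATGCGCaatttccgccc
NDUFB4, chr3:120596166-120596195, plus strand: aagagcacttcGCGCATGCgcatatcaccg

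The libraries held 25099799 to 27953878 reads, as recovered from the steps in the RPKM values (reads per kilobase of gene model, scaled to library size). SRSF1 stood at 14.6 RPKM in U87MG KD against 88.3 RPKM in U87MG WT, and at 15.8 RPKM in U251 KD against 109 RPKM in U251 WT. Of 8 glioma and astrocytic markers, VIM (1065 RPKM or more) and CD44 (124 RPKM or more) were high in every library. NES and SOX2, stem cell markers, reached 61.1 and 47.9 RPKM or more in U251 but at most 1.79 and 0.121 RPKM in U87MG. GFAP, which marks astrocytes, reached at most 1.47 RPKM. S100B stayed under 0.1 RPKM in every library, FABP7 was listed at 0 in U87MG and reached at most 3.08 RPKM in U251, and OLIG2 reached at most 2.46 RPKM. Of the neuron markers 3 of 4 reached 1 RPKM, with at most 6.95 RPKM, and RBFOX3 was listed at 0. None of the 4 leukocyte and none of the 3 endothelial markers reached 1 RPKM. KRT18, an epithelial keratin, was at 19.9 RPKM in U251 KD and 22.4 RPKM in U251 WT but under 1 RPKM in U87MG. The other epithelial markers, EPCAM and CDH1, stayed under 1 RPKM in every library.

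Mitochondrial transcripts stood apart from nuclear ones, and in opposite directions in the lines. Ratios are given as log2 of KD over WT after adding 1 RPKM. The median ratio of the 12 mitochondrial members was 0.78 in U87MG (SD across genes 0.27) and -0.72 in U251 (SD across genes 0.26). The 89 nuclear members with at least 1 RPKM in at least 1 library had medians of 0.10 in U87MG and 0.12 in U251, with SDs across genes of 0.26 and 0.24. Over all 16098 tested rows the medians were -0.05 in U87MG and -0.00 in U251. In these bulk libraries, fewer cells of a type and less RNA per cell cannot be told apart. Mitochondrial members took 2.38% of reads in U87MG KD against 1.42% in U87MG WT, and 2.41% in U251 KD against 3.68% in U251 WT.

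Of the 12 mitochondrial members, 11 were higher in KD than in WT by at least 25% in U87MG and lower by at least 20% in U251, on the scale of RPKM + 1. The same combination was seen in 1.11% of all tested rows. A 1.5-fold difference was passed by 9 members upward in U87MG and by 8 members downward in U251. The corresponding shares of all rows were 7.68% and 7.73%. ND6 was the exception in both lines. The members are not independent of each other, since they are cut from shared precursors and several overlap.

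No mitochondrial member was called by limma across the lines at an adjusted p of 0.05, nor did one have an unadjusted p under 0.05. In all 16098 rows, 3.76% were called in either direction (1.16% higher, 2.61% lower), and 21.1% had an unadjusted p under 0.05. Adjusted p-values of the mitochondrial members were 0.579 to 0.981. That fit asks for a shared direction and has 1 residual degree of freedom, and the difference between the lines could not be tested because no residual degree of freedom is left for it.

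**Figure D1:**
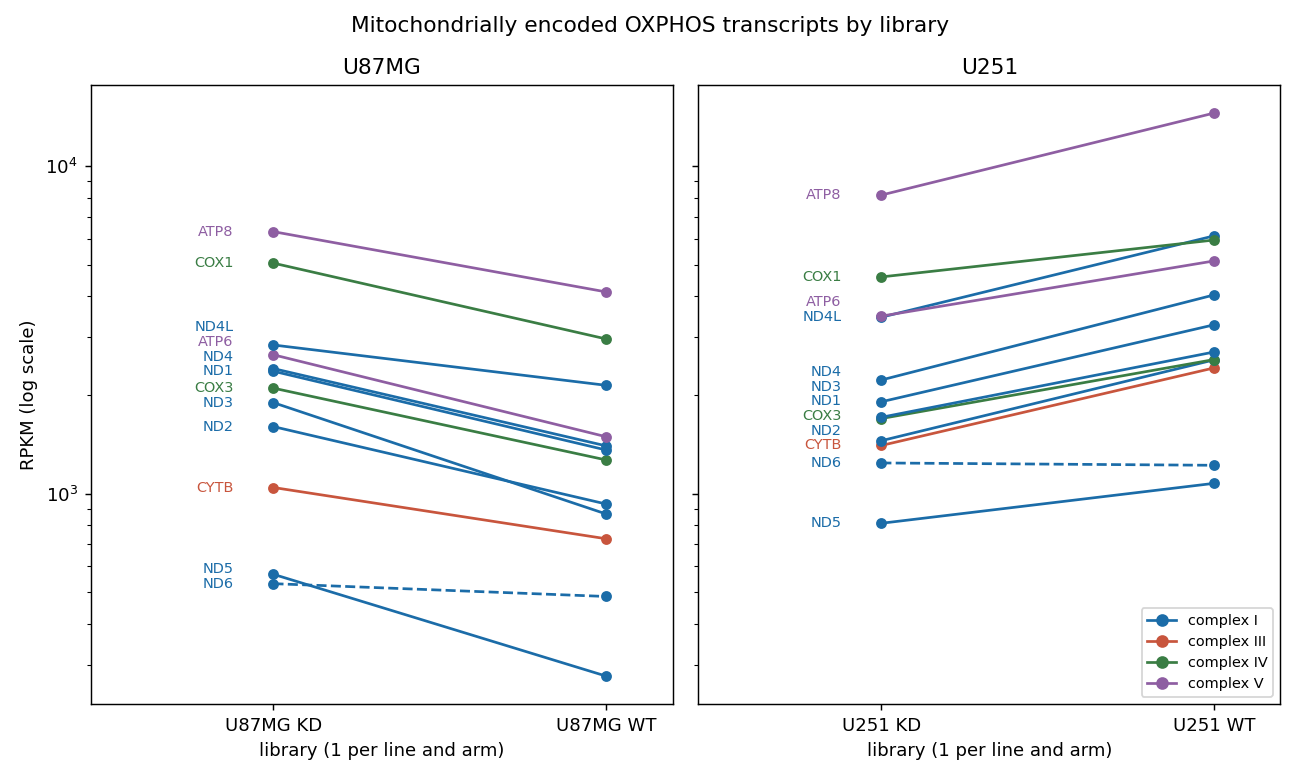
RPKM of the 12 mitochondrially encoded members in the 4 libraries (log axis; KD left of WT within each line; 1 library per point, colour by complex, ND6 dashed). In U87MG the KD point lies above the WT point for every member, and in U251 it lies below it for every member but ND6.

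The 7 mitochondrial subunits of complex I form the membrane arm that pumps protons. ND1 was at 2364 RPKM in U87MG KD against 1359 RPKM in U87MG WT, and at 1710 RPKM in U251 KD against 2707 RPKM in U251 WT. ND2 was at 1602 RPKM in U87MG KD against 929 RPKM in U87MG WT, and at 1451 RPKM in U251 KD against 2561 RPKM in U251 WT. Both were thus higher in KD in U87MG and lower in KD in U251. ND3 had the widest separation between the lines, with 1896 RPKM in U87MG KD against 867 RPKM in U87MG WT, and 1907 RPKM in U251 KD against 3277 RPKM in U251 WT. Its reads were 2.19 times as many, scaled to library size, in U87MG KD as in U87MG WT (95% Clopper-Pearson interval 2.13 to 2.25), and 0.582 times as many in U251 KD as in U251 WT (0.571 to 0.593). These intervals cover counting error only.

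ND4 was at 2409 RPKM in U87MG KD against 1399 RPKM in U87MG WT, and at 2223 RPKM in U251 KD against 4043 RPKM in U251 WT. ND4L, which overlaps ND4 by a few bases, was at 2844 RPKM in U87MG KD against 2142 RPKM in U87MG WT, and at 3457 RPKM in U251 KD against 6126 RPKM in U251 WT. The log2 ratios of this pair were 0.78 and 0.41 in U87MG and -0.86 and -0.82 in U251, in the order ND4 and ND4L. ND5 was at 567 RPKM in U87MG KD against 277 RPKM in U87MG WT, and at 812 RPKM in U251 KD against 1075 RPKM in U251 WT. It had the second-largest ratio in U87MG, 1.03, and a smaller one in U251, -0.40.

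ND6 is the only member read from the other strand (chrM:14149-14673, minus strand, GRCh38). It was at 531 RPKM in U87MG KD against 485 RPKM in U87MG WT, and at 1240 RPKM in U251 KD against 1220 RPKM in U251 WT. Its read ratio was 1.09 in U87MG (1.06 to 1.13) and 1.02 in U251 (0.995 to 1.04). In U251 the counting interval includes equality.

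CYTB, the cytochrome b of complex III, was at 1044 RPKM in U87MG KD against 728 RPKM in U87MG WT, and at 1403 RPKM in U251 KD against 2420 RPKM in U251 WT. COX1, the subunit of complex IV that reduces oxygen, was at 5056 RPKM in U87MG KD against 2967 RPKM in U87MG WT, and at 4590 RPKM in U251 KD against 5949 RPKM in U251 WT. COX3, another core subunit, was at 2099 RPKM in U87MG KD against 1267 RPKM in U87MG WT, and at 1695 RPKM in U251 KD against 2567 RPKM in U251 WT. All 3 lay higher in KD in U87MG and lower in KD in U251. COX1 had the smallest U251 ratio of the 11, -0.37.

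ATP6, which forms part of the proton channel of complex V, was at 2654 RPKM in U87MG KD against 1492 RPKM in U87MG WT, and at 3484 RPKM in U251 KD against 5136 RPKM in U251 WT. ATP8, a small subunit beside it, was at 6310 RPKM in U87MG KD against 4131 RPKM in U87MG WT, and at 8162 RPKM in U251 KD against 14528 RPKM in U251 WT. ATP8 had the highest RPKM of the members in every library. The genes overlap (ATP8 at chrM:8366-8572, ATP6 at chrM:8527-9207, GRCh38), so reads there may belong to either.

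Other rows of the mitochondrial DNA show how far the pattern extends. COX2, which the rule leaves out, was at 8170 RPKM in U87MG KD against 4264 RPKM in U87MG WT, and at 8838 RPKM in U251 KD against 10932 RPKM in U251 WT. The rRNA rows did not follow in U251. RNR1 had log2 ratios of 0.94 in U87MG and 0.29 in U251, and RNR2 had 1.04 and 0.14. Of the tRNA rows of the same strand as most members, 9 of 14 reached 10 RPKM, with median ratios of 0.76 in U87MG and -0.40 in U251. All 9 were higher in KD in U87MG. In U251, 7 of them were lower in KD, and TRNV (0.28) and TRNT (0.09) were higher. The 8 tRNA rows of the opposite strand, that of ND6, had medians of 0.01 and -0.07. They ranged from -0.50 to 0.84 in U87MG and from -0.50 to 0.44 in U251. Among these, TRNS1, which lies beside COX1, had ratios of 0.84 and -0.50. The strand setting of the counting was not found in the labels or headers, so reads of the strands may be mixed.

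**Figure D2:**
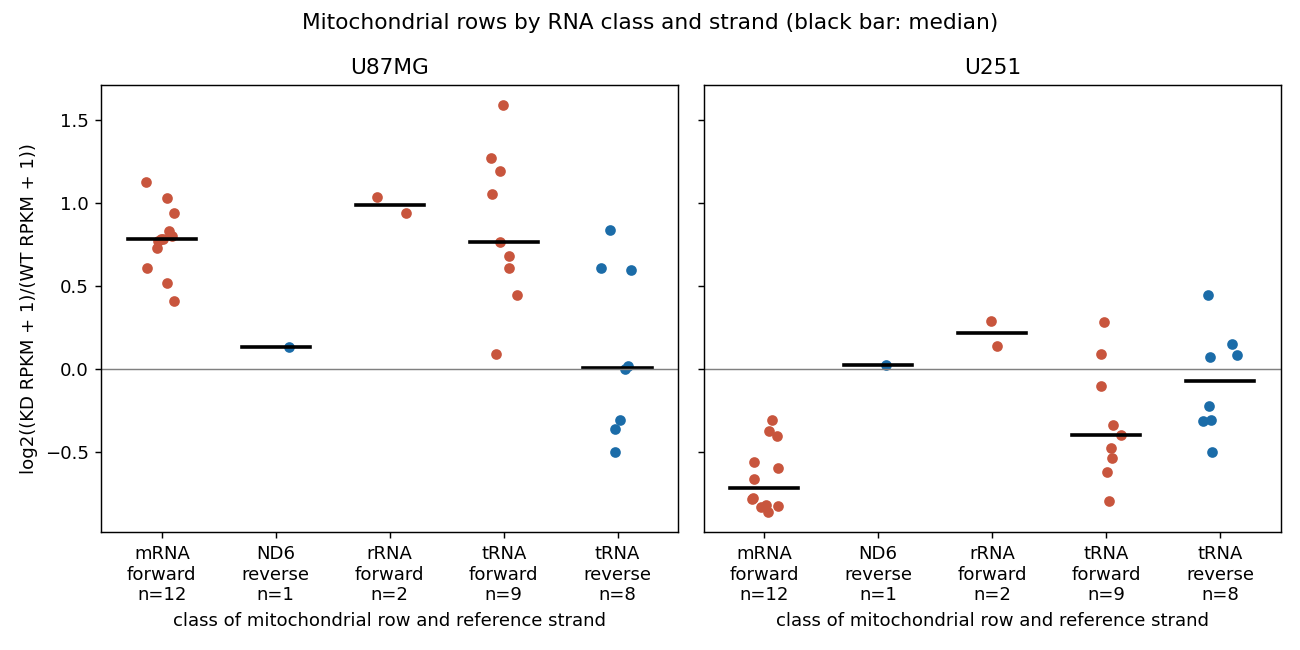
Log2 ratio of KD over WT (RPKM + 1) in U87MG and U251 for mitochondrial rows by RNA class and reference strand (1 point per row, black bar at the median; COX2 is among the forward mRNA rows, and tRNA rows have at least 10 RPKM in a library). Forward mRNA rows lie above 0 in U87MG and below 0 in U251, the rRNA rows lie above 0 in both lines, and the reverse tRNA rows lie on both sides of 0.

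The 9 rows for nuclear copies of mitochondrial genes that reached 1 RPKM were higher in KD in U87MG and lower in KD in U251, as most members were. MTND2P28, a copy of ND2, was at 59.9 RPKM in U87MG KD against 37.6 RPKM in U87MG WT, and at 47.1 RPKM in U251 KD against 86.1 RPKM in U251 WT. Of the 31-base words of the members, 66.7% of COX1, 63.7% of ATP6 and 56.9% of ND2 also occur in another annotated gene (GENCODE 29), and 3.48% of ND3. CYTB shares 4.95% of its words. The ratios of these members in U87MG and U251 were 1.13 and -0.78 for ND3, 0.52 and -0.79 for CYTB, and 0.77 and -0.37 for COX1. The part of the copies in these values was not tested.

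Summed over members, mitochondrial rows held 82.5% of the oxidative phosphorylation RPKM in U87MG KD against 75.1% in U87MG WT, and 82.8% in U251 KD against 89.6% in U251 WT. The mitochondrial sum was 1.63 times as high in U87MG KD as in U87MG WT and 0.623 times as high in U251 KD as in U251 WT. The nuclear sum was 1.04 and 1.11 times as high in KD. The mitochondrial sum of U87MG KD was 0.914 times that of U251 KD, whereas its median mitochondrial RPKM was 1.23 times as high. The sum of U87MG WT was 0.350 times that of U251 WT, and its median was 0.439 times as high.

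In the line contrast of the same limma fit, 6 mitochondrial members were lower in U87MG than in U251 at an adjusted p of 0.05, against 27% of all rows. They were ND4L, ND5, ND6, CYTB, ATP6 and ATP8, with log2 differences of -0.90, -1.23, -1.28, -1.08, -1.09 and -1.09. ND6 had the largest of the 12 differences between the lines, and within each line it had the smallest ratio between the arms.

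Set against each other within a complex, the nuclear and mitochondrial medians differed in sign in U251 in every complex that has both, and in U87MG the mitochondrial median was the higher one. Single rows overlapped in complex I, where ND6 lay among the nuclear rows. In U87MG, NDUFA8, NDUFS4, NDUFAF2, NDUFAF3 and NDUFA7 lay above ND4L, and in U251 NDUFB4 lay below ND5. In complex I, the nuclear rows had median ratios of 0.07 in U87MG and 0.09 in U251 (46 rows), and the mitochondrial ones 0.78 and -0.78 (7 rows). In complex III the nuclear medians were 0.17 and 0.14 (9 rows), and CYTB had 0.52 and -0.79. In complex IV they were 0.19 and 0.14 (11 rows), against 0.75 and -0.49 (2 rows). In complex V they were 0.01 and 0.11 (18 rows), against 0.72 and -0.70 (2 rows). Complex II, with nuclear rows alone, had 0.18 and 0.12 (4 rows). The nuclear median minus the mitochondrial median was -0.68 in U87MG and 0.84 in U251. With subunits alone it was -0.70 and 0.83. Under quantile normalization it was smaller, -0.33 and 0.51. The nuclear medians of subunits alone were 0.05 and 0.09 in complex I (37 rows), 0.17 and 0.13 in complex III (8 rows), and -0.01 and 0.12 in complex V (15 rows).

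**Figure D3:**
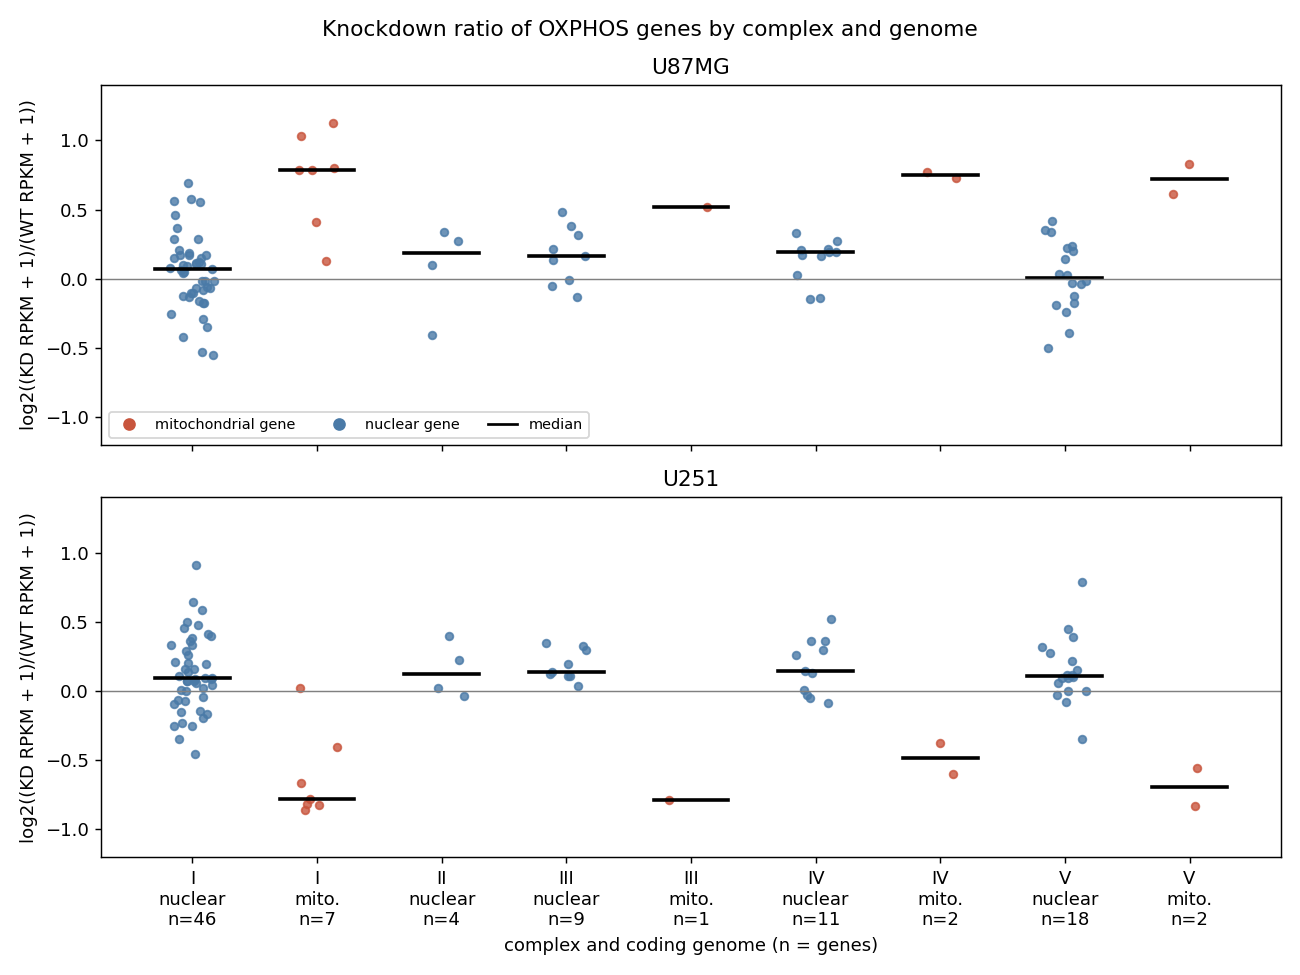
Log2 ratio of KD over WT by complex and genome in U87MG and U251 (1 point per row, bars at the median). Nuclear rows centre close to 0 in each complex, and mitochondrial rows centre between 0.52 and 0.78 in U87MG and between -0.49 and -0.79 in U251.

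Nuclear members lay more often higher than lower in KD, by small amounts. In U87MG, 54 of the 89 lay higher in KD than in WT, where 42.7% of the tested mRNA rows did. In U251 it was 67 of 89, and 48% of mRNA rows. In both lines 47 lay higher, and 29.8% of mRNA rows. In U87MG 14 were higher by at least 25% and 7 lower by at least 20% (mRNA rows 16.7% and 26.2%). In U251 these were 21 and 3 (mRNA rows 14.9% and 20%). Among the 75 subunits alone, 10 were higher and 7 lower in U87MG, and 16 were higher and 3 lower in U251. Past 1.5-fold, NDUFA8 alone was higher in U87MG, and 4 were higher in U251, among them NDUFAF3, NDUFAF7 and ATP5D. The shares of mRNA rows higher by 1.5-fold were 7.24% in U87MG and 4.59% in U251. No nuclear member was lower by that much in U87MG or U251 (mRNA rows 11.7% and 7.81%). Past the 25% and 20% limits, 6 members were higher in both lines (mRNA rows 6.47%), 1 was lower in both (mRNA rows 11.9%), and 0 took opposite directions (mRNA rows 1.26%).

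By limma, 0 of the 89 nuclear members were called in either direction (mRNA rows 4.28%, with 1.26% higher and 3.02% lower). An unadjusted p under 0.05 was reached by 7 (mRNA rows 22.5%). These were NDUFAF3, NDUFAF2, NDUFA8, NDUFA7, NDUFS4, ATP5J2 and COX7B. Except for ATP5J2, all were higher in KD in both lines. The values of NDUFA7 and NDUFAF2 are less certain, since 78.8% and 46.3% of their 31-base words also occur in another annotated gene.

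The 7 NDUFAF rows, assembly factors that help put complex I together, were all higher in KD in both lines, against 29.8% of mRNA rows. Their median ratios were 0.21 in U87MG and 0.45 in U251 (7 of 7 rows in each). By at least 25%, 2 of the 7 were higher in both lines (mRNA rows 6.47%). NDUFAF3 was at 16.0 RPKM in U87MG KD against 10.6 RPKM in U87MG WT, and at 20.4 RPKM in U251 KD against 10.4 RPKM in U251 WT. Its log2 difference across the lines was 0.73 ± 0.17 (SE), with an adjusted p of 0.064 from limma. NDUFAF2 was at 116 RPKM in U87MG KD against 78.4 RPKM in U87MG WT, and at 110 RPKM in U251 KD against 78.7 RPKM in U251 WT. For both genes each KD library lay above each WT library, and they had the lowest unadjusted limma p of the nuclear members. How many rows of the whole table are separated in this way was not counted. NDUFAF7 had a ratio of 0.04 in U87MG, and 0.59 in U251.

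Core nuclear subunits of complex I carry its flavin and iron-sulphur clusters. Their medians were -0.06 in U87MG and 0.11 in U251 (7 rows), and those of the accessory subunits, which surround the core, were 0.05 and 0.07 (30 rows). NDUFS1, the largest iron-sulphur subunit, was at 26.7 RPKM in U87MG KD against 39.0 RPKM in U87MG WT, and at 48.4 RPKM in U251 KD against 50.7 RPKM in U251 WT. It thus lay lower in KD mainly in U87MG. NDUFA8, an accessory subunit, was at 90.4 RPKM in U87MG KD against 55.6 RPKM in U87MG WT, and at 31.3 RPKM in U251 KD against 23.6 RPKM in U251 WT. Its log2 difference was 0.54 ± 0.17 (SE; limma adjusted p 0.124).

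NDUFB11 and NDUFB8, accessory subunits of the membrane arm, had the lowest mean ratios of complex I. NDUFB11 was at 19.0 RPKM in U87MG KD against 28.2 RPKM in U87MG WT, and at 20.1 RPKM in U251 KD against 21.5 RPKM in U251 WT. NDUFB8 was at 27.3 RPKM in U87MG KD against 37.0 RPKM in U87MG WT, and at 24.2 RPKM in U251 KD against 28.0 RPKM in U251 WT. In NDUFB8, 56.3% of the 31-base words also occur in another annotated gene, so its value is less certain. NDUFB4, also accessory, had 0.15 in U87MG, and -0.45 in U251. NDUFS4, an accessory subunit, was at 146 RPKM in U87MG KD against 97.9 RPKM in U87MG WT, and at 197 RPKM in U251 KD against 156 RPKM in U251 WT.

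The 4 subunits of complex II, the succinate dehydrogenase of the citric acid cycle, shared no direction in U87MG. SDHA, its flavoprotein, was at 39.9 RPKM in U87MG KD against 53.2 RPKM in U87MG WT, and at 60.0 RPKM in U251 KD against 59.1 RPKM in U251 WT. SDHB, its iron-sulphur subunit, was at 116 RPKM in U87MG KD against 96.0 RPKM in U87MG WT, and at 72.6 RPKM in U251 KD against 54.9 RPKM in U251 WT. The log2 ratios of SDHA were -0.41 and 0.02, and those of SDHB 0.27 and 0.40. The membrane anchors had ratios of 0.10 and 0.23 (SDHC) and of 0.34 and -0.04 (SDHD).

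In complex III all 9 nuclear rows were higher in KD in U251, with ratios of 0.04 to 0.35, and 6 of 9 were higher in U87MG. UQCR10, a small subunit, was at 8.45 RPKM in U87MG KD against 5.77 RPKM in U87MG WT, and at 12.7 RPKM in U251 KD against 11.6 RPKM in U251 WT. UQCR11 had ratios of 0.38 and 0.19. UQCRC2, a core protein of the matrix side, and UQCRQ had the lowest mean ratios, with -0.13 and 0.11 for UQCRC2 and -0.01 and 0.04 for UQCRQ.

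Complex IV had 11 of its 18 nuclear rows tested. Its other rows were isoforms of muscle, testis or lung and NDUFA4L2, none of which reached 1 RPKM. COX4I2, COX6A2, COX7A1, COX7B2 and COX8C were listed at 0 in every library, while their partners COX4I1, COX6A1, COX7A2, COX7B and COX8A were all measured. COX5B was at 153 RPKM in U87MG KD against 137 RPKM in U87MG WT, and at 124 RPKM in U251 KD against 86.5 RPKM in U251 WT. COX7B was at 212 RPKM in U87MG KD against 169 RPKM in U87MG WT, and at 246 RPKM in U251 KD against 192 RPKM in U251 WT, a log2 difference of 0.34 ± 0.15 (SE). COX7C had the highest RPKM of all nuclear members, 482 RPKM in U87MG KD against 532 RPKM in U87MG WT, and 634 RPKM in U251 KD against 646 RPKM in U251 WT. COX7A2L, which joins complexes III and IV, had ratios of 0.52 and 0.16.

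In complex V, ATP5J2 was lower in KD in both lines. It was at 63.5 RPKM in U87MG KD against 83.8 RPKM in U87MG WT, and at 92.7 RPKM in U251 KD against 118 RPKM in U251 WT, a log2 difference of -0.37 ± 0.16 (SE). ATP5A1, the alpha subunit of the catalytic F1 part, was at 104 RPKM in U87MG KD against 147 RPKM in U87MG WT, and at 88.7 RPKM in U251 KD against 93.6 RPKM in U251 WT. ATP5D, the delta subunit, had the widest separation between the lines among nuclear members, at -0.04 in U87MG and 0.79 in U251. It was at 90.9 RPKM in U251 KD against 52.3 RPKM in U251 WT. The genes ATP5G1, ATP5G2 and ATP5G3 encode the same ring subunit. ATP5G1 was higher in KD in both lines (0.42 and 0.32), and the others stayed between -0.18 and 0.15.

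**Figure D4:**
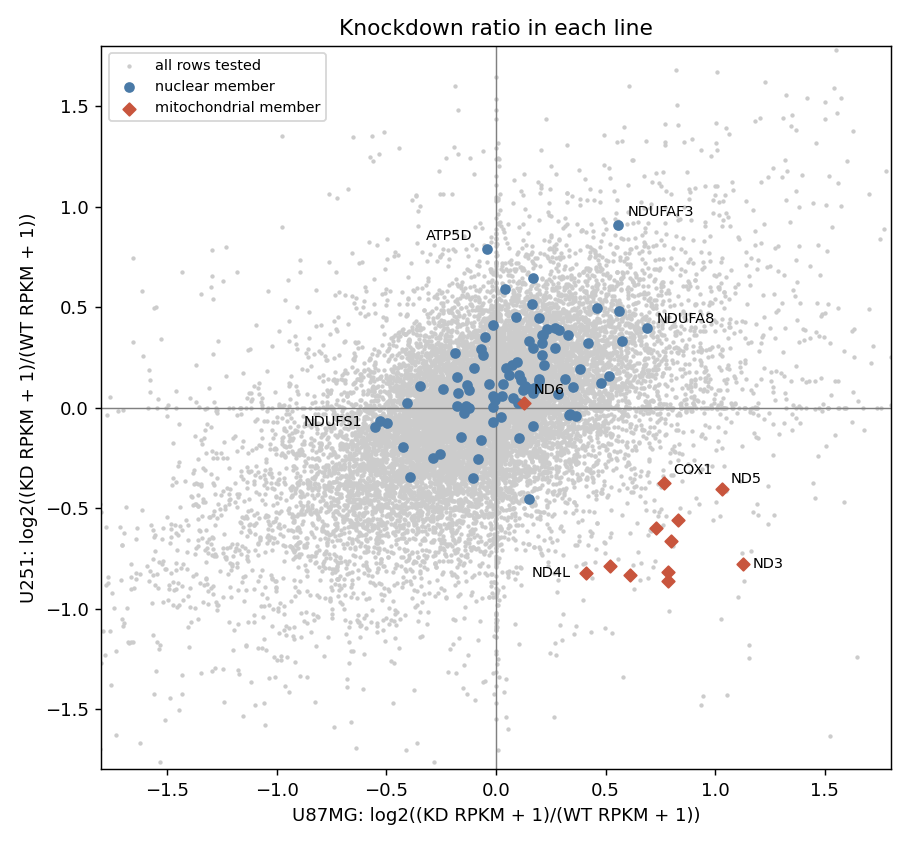
Log2 ratio of KD over WT (RPKM + 1) in U251 (y axis) against that in U87MG (x axis), with 1 point per row for nuclear members, mitochondrial members and, in grey, all tested rows within the axis limits. Nuclear members centre on medians of 0.10 in U87MG and 0.12 in U251, and 11 of the 12 mitochondrial members lie at positive U87MG and negative U251 values.

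Set by line, 10 nuclear members had higher levels in U87MG and 17 had lower ones, relative to U251 (mRNA rows 21.9% and 30.5%). NDUFA8 and NDUFB9 were higher in U87MG by 1.35 and 0.83 on the log2 scale. NDUFA12 had a log2 difference of -1.19. The summed pseudogene rows of COX6A1 and of NDUFA4 had more RPKM than the gene in U87MG WT, so the values of these members are less certain. Across nuclear members, the ratio was nearly unrelated to the length of the gene model (Spearman's rho -0.08 in U87MG and -0.04 in U251, across 89 genes). Members with the NRF1 core had median ratios of 0.15 in U87MG and 0.08 in U251 (16 tested), and those without it 0.07 and 0.11 (56 tested). With the GABP core the medians were 0.17 and 0.21 (21 tested), and without it 0.06 and 0.10 (51 tested). A link between either core and the ratios was not tested.

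Genes that make and keep mitochondrial RNA are encoded in the nucleus. The list for replication and transcription of mitochondrial DNA had median ratios of -0.27 in U87MG and -0.04 in U251 (18 tested). TK2, which supplies nucleotides for it, was its only called gene, where 4.28% of mRNA rows were called. TK2 had a log2 difference of -0.87 and a limma adjusted p of 0.039. POLRMT, the mitochondrial RNA polymerase, had ratios of -0.65 and -0.26. TFAM, which packages mitochondrial DNA, had -0.43 and -0.04. In both lines 9 genes of this list were lower in KD and 4 were higher, among the latter TOP1MT with 0.36 and 0.53. Of the 11816 tested mRNA rows, 4518 were lower and 3525 were higher in both lines. The list for mitochondrial RNA processing had medians of -0.14 and 0.06 (21 tested, 0 called, against 4.28% of mRNA rows). In both lines 7 of its genes were higher in KD and 6 were lower (3525 and 4518 of the 11816 mRNA rows). LRPPRC, which stabilises mitochondrial mRNAs, had 0.19 and 0.47, SUPV3L1 had 0.41 and 0.37, and ANGEL2 had -0.38 and -0.35. The list for mitochondrial translation had medians of -0.28 and 0.04 (27 tested, 1 called, against 4.28% of mRNA rows). The called gene was SARS2, a mitochondrial seryl-tRNA synthetase, lower in KD by a log2 difference of -0.93 (limma adjusted p 0.033). The calls of TK2 and SARS2 were lost without the filter on low values and without the line block, where 0 rows of the table were called.

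Of the other assembly factors, 0 of 32 were called (4.28% of mRNA rows were), with medians of -0.06 and 0.02. Unlike the NDUFAF rows, the complex I factors TIMMDC1, FOXRED1 and NUBPL were lower in KD in both lines. Their log2 ratios were -0.41 and -0.54, -0.57 and -0.23, and -0.28 and -0.29. Other complex I factors of the list did not share this. ECSIT had 0.10 and -0.01, ACAD9 had -0.01 and 0.19, and TMEM126B had 0.28 and 0.04. PET117 and COX11, both needed for complex IV, had log2 ratios of -0.91 and -0.60, and of -0.63 and -0.64. COX17 and COX14, also factors of complex IV, were higher in both lines, with 0.28 and 0.31, and 0.30 and 0.27. Over all 32 factors, 8 were higher and 12 were lower in KD in both lines. Of the 11816 tested mRNA rows, 3525 were higher and 4518 were lower in both. Transcriptional regulators of the system had medians of -0.12 and 0.04 (14 tested). EPAS1, a hypoxia-inducible factor, was the only one of them called, where 4.28% of mRNA rows were. It was lower in KD (log2 difference -0.84, limma adjusted p 0.038). That call was lost, like all others in the table, without the filter on low values or without the line block. PPARGC1A, a coactivator of mitochondrial genes, was at 1.60 RPKM in U87MG KD against 0.599 RPKM in U87MG WT, and at 3.77 RPKM in U251 KD against 1.79 RPKM in U251 WT.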

How the data were processed

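The authors deposited 1 table of RPKM values per gene, with 4 columns of values, all used. The submitters' processing notes name Bowtie 0.12.2 and the build hg19. Which program counted reads, on which annotation and with which strand setting, is not given in the sources used here. Reads were recovered from the steps of the RPKM values. All 103 members above 0 came out as whole reads within 0.01 reads, for a model length up to 40000 bases. Ratios used log2(RPKM + 1), which understates changes of low genes. limma 3.58.1 in R 4.3.3 was fitted to the 16098 rows with at least 1 RPKM in at least 1 library, blocked by cell line, with an eBayes trend, two-sided, with Benjamini-Hochberg adjustment. The block comes from the cell line. Since nothing names separate cultures, p-values reflect nothing beyond the spread of these libraries. Named genes were all mitochondrial members, and by fixed rank or fold the extremes of each complex. A few named genes are not reported here. The members and lists were chosen with earlier results of these data known. The limma step was tested on simulated data. Positions are those of GRCh38, with none converted. Python 3.11.15 was used, with scipy 1.17.1, pandas 2.3.3, numpy 2.4.6 and matplotlib 3.10.9.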

Additional observations from a re-analysis of the deposited data

Results flagged for a closer look

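The mitochondrial members had opposite directions in the lines, with a median log2 ratio of KD over WT of 0.78 in U87MG and -0.72 in U251. The difference between the lines was not tested, as no residual degree of freedom is left for it. By gene, the ratios in U87MG and then U251 were 0.80 and -0.66 for ND1, 0.78 and -0.82 for ND2, and 1.13 and -0.78 for ND3. They were 0.78 and -0.86 for ND4, 0.41 and -0.82 for ND4L, and 1.03 and -0.40 for ND5. CYTB had 0.52 and -0.79, COX1 had 0.77 and -0.37, and COX3 had 0.73 and -0.60. ATP6 had 0.83 and -0.56, and ATP8 had 0.61 and -0.83.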

How the results depend on the processing

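Each line rests on 1 library per arm, so leaving out a line leaves the ratio of the other with no test. The median ratio of the mitochondrial members ranged from 0.45 to 0.89 in U87MG and from -0.77 to -0.42 in U251 over the settings tried, and kept its sign. The nuclear median ranged from 0.04 to 0.20 and from 0.07 to 0.13, and the nuclear minus the mitochondrial median from -0.70 to -0.33 and from 0.51 to 0.84. Under quantile normalization the median ratio of the mitochondrial members was 0.45 in U87MG and -0.42 in U251. There, the mitochondrial medians in U87MG were 0.21 in complex IV and 0.24 in complex V, and in U251 they were -0.45 in complex I, -0.50 in complex III and -0.15 in complex V. The cause was not tested. Nuclear members higher by at least 25% in U87MG numbered 8 with a pseudocount of 5 and 9 with equal totals without mitochondrial members, and 3 were lower by at least 20% with trimmed-mean rescaling. In U251, 1 was lower with a pseudocount of 5 and 5 with quantile normalization. One nuclear member was called higher by limma with a minimum of 5 RPKM and with quantile normalization (1 in each), NDUFAF3. Rows of the whole table called higher and lower were 186 and 420. They were 26 and 52 with a pseudocount of 5, 0 and 0 with no filter, 8 and 7 with trimmed-mean rescaling, and 88 and 172 without a trend. Without the replicate block, which pairs libraries by line, 0 and 0 were called. Higher calls were 301 with a minimum of 5 RPKM and 315 with quantile normalization, and lower calls were 712 with equal totals. By median RPKM, the mitochondrial share was 98.1%, 97.1%, 97.3% and 98.5% in U87MG KD, U87MG WT, U251 KD and U251 WT. Small mean ratios near 0 changed sign: COX3 -0.021, ND2 0.098, ND4 0.055, COX8A 0.0072 and ATP5G3 0.039 with quantile normalization. With trimmed-mean rescaling these were ND2 0.042, ND4 0.020, UQCRC2 0.049, COX8A 0.046 and ATP5G3 0.041. With equal totals they were UQCRQ -0.037, NDUFA4 -0.011 and ATP5G2 -0.0095.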

Other observations

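Of the 18 tested genes of the citric acid cycle, 0 were called by limma (4.28% of mRNA rows were), with median log2 ratios of -0.07 in U87MG and 0.10 in U251. IDH2, an isocitrate dehydrogenase, had log2 ratios of -0.60 in U87MG and -1.23 in U251. SUCLG2, a subunit of succinyl-CoA synthetase, had 1.19 and 0.41. Of the 15 tested genes of cytochrome c and coenzyme Q, 1 was called, COQ2, against 4.28% of mRNA rows. COQ2 was lower in KD by a log2 difference of -0.75 (limma adjusted p 0.049). That call was lost without the filter on low values and without the line block, where 0 rows of the table were called. CYCS, the cytochrome c that carries electrons from complex III to complex IV, had ratios of 0.52 and 0.42. Of the 13 tested carrier genes, 0 were called, against 4.28% of mRNA rows.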
